A study of Saccharomyces cerevisiae with 2 samples.

Results

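The vacuolar proton pump genes VMA2, VMA3, VMA4, VMA5, VMA6, VMA7, VMA8, VMA10, VMA11 and VMA13 were described in Saccharomyces cerevisiae lacking SET2, whose product methylates histone H3 behind RNA polymerase II. They are 10 of 6002 nuclear protein-coding open reading frames (ORFs), taken by name, and all 10 were found in the R64 annotation. The strain carried the kanMX4 cassette in place of SET2 in the BY4741 laboratory background and was grown in YPAD, a rich glucose medium, to mid-log phase at OD 1. The series has 2 biological replicate cultures of this 1 genotype and no wild type. Transcript isoform sequencing (TIF-Seq) joins the ends of each full-length cDNA, made from capped and polyadenylated RNA, and reads both, so each count belongs to a pair of start and end positions, called an isoform here. The authors' table gives 1 count column, whose header names neither library, and it is taken here as the pool of both cultures. It holds 6074514 molecules in 510263 isoforms, and with 1 column no value below has a spread between replicates. SET2 itself had 0 sense and 0 antisense molecules, and a count of 0 allows a share of up to 4.94e-05% of all molecules.

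The pump acidifies the vacuole, the yeast counterpart of the lysosome. Its peripheral V1 sector hydrolyses ATP and turns a shaft, and its membrane V0 sector carries protons on a rotating ring. The complex is best known in yeast as a housekeeping machine whose loss makes cells unable to grow at neutral pH, and its sectors come apart when glucose is withdrawn. The V1 genes in the set are VMA2 (subunit B, which forms the ATP-binding head together with the catalytic subunit A), VMA4 and VMA10 (E and G, the outer stalks), VMA8 and VMA7 (D and F, the central shaft), VMA5 (C, which clamps the stalks to the membrane sector) and VMA13 (H, which couples hydrolysis to transport). The V0 genes are VMA3 and VMA11 (c and c', proton-carrying ring proteins) and VMA6 (d, which joins the ring to the shaft).

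The bases around the most used start and end of selected genes are shown first, because the molecules of some of these genes concentrate on a site and those of others spread over several. All were read from the R64 genome, 5′ to 3′ on the strand of the gene. In the start windows the capitals mark the base before the start and the start itself. VMA4 and VMA3 had a sharp start and VMA2 a spread start.
VMA4 start, chrXV:943613-943636, plus strand: tacaaaagaggCAcagaacaggcc
VMA3 start, chrV:100694-100717, plus strand: aaagagaagatCGtgtttattgct
VMA2 start, chrII:492875-492898, minus strand: agatagacaacCAttgttgacagg

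In the end windows the capital marks the recorded end. Where genomic A follows it directly, the last base before the poly(A) tail cannot be placed exactly. VMA6, VMA13 and VMA2 are shown for their concentrated ends next to A-rich sequence, and VMA4 and VMA10 for ends without it.
VMA6 end, chrXII:1026689-1026718, minus strand: aaaattttcagaccCaaaaaaaaaaaaaaa
VMA13 end, chrXVI:645348-645377, plus strand: gaagaacatccataGaaaagaaaagaagaa
VMA2 end, chrII:491088-491117, minus strand: cataatccgtaattGaaaaaaaaaaaagaa
VMA4 end, chrXV:944413-944442, plus strand: ttttgtatgttgttCtttcctctgtggtgg
VMA10 end, chrVIII:187045-187074, minus strand: actctcgctttatcCattcagccttttttt

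How much RNA was recorded over each gene was asked first. The 10 coding spans, taken from start codon to stop codon, were overlapped on their own strand by 136678 molecules, 2.25% of the total, although they make up 0.167% of the ORFs. VMA3 alone held 65.6% of these. The median was 4551 sense molecules over the pump genes and 122 over all ORFs. A molecule that covers the coding span from its first to its last base is called full-ORF. Such molecules made up 97.0% of the sense molecules of the pump genes (95% Wilson interval 96.9% to 97.0%, which like all intervals here covers counting error only).

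Among the V1 genes, VMA2 (YBR127C, chromosome II, 491269 to 492822, minus strand) had 5688 full-ORF molecules of 6429 sense molecules over a span of 1554 nt. VMA4 (YOR332W, chromosome XV, 943656 to 944357, plus strand) had 8099 of 8256 over 702 nt. VMA10 (YHR039C-A, chromosome VIII, 187173 to 187679, minus strand) had 2383 of 2673 over 507 nt, and is the only gene of the set with an intron in its coding span. The full-ORF share was 98.1% for VMA4, 89.2% for VMA10 and 88.5% for VMA2. VMA8 (YEL051W, chromosome V, 58378 to 59148, plus strand) had 2187 of 2401 over 771 nt. VMA7 (YGR020C, chromosome VII, 526973 to 527329, minus strand) had 773 of 833 over 357 nt. Most molecules of both shaft genes were complete, with 91.1% for VMA8 and 92.8% for VMA7. VMA5 (YKL080W, chromosome XI, 285030 to 286208, plus strand) had 181 of 197 over 1179 nt. VMA13 (YPR036W, chromosome XVI, 643836 to 645272, plus strand) had 604 of 1071 over 1437 nt. With 56.4% (53.4% to 59.3%), VMA13 had the lowest full-ORF share of the 10 genes.

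Among the V0 genes, VMA3 (YEL027W, chromosome V, 100769 to 101251, plus strand) had 88272 full-ORF molecules of 89691 sense molecules over 483 nt. VMA11 (YPL234C, chromosome XVI, 104946 to 105440, minus strand) had 11461 of 11606 over 495 nt. VMA6 (YLR447C, chromosome XII, 1026856 to 1027893, minus strand) had 12867 of 13521 over 1038 nt. The 2 ring genes had nearly the same length and a similar class make-up, with full-ORF shares of 98.4% for VMA3 and 98.8% for VMA11. Their full-ORF counts differed by 7.70 times. VMA3 and VMA11 are paralogues, with 70.6% identity over 462 aligned coding bases and no identical run longer than 10 nt. For every sense molecule of the 10 genes, the 30 nt at its start and the 30 nt at its end were each unique in R64.

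Because few long molecules were recovered, each gene was then set beside the ORFs whose coding span was within 10% of its own. All 10 pump genes had more full-ORF molecules than the median of those ORFs, which was so for 46.3% of all ORFs. VMA3 stood above all 269 ORFs of its length, at 372 times their median of 237. VMA2 stood at 356 times a median of 16, percentile 99.8 of 665 ORFs. VMA6 stood at 204 times its median, percentile 97.0. These 3 genes, the ring protein, the head subunit and the ring-to-shaft connector, lay highest for their length.

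The next in order by this ratio were VMA7 at 77.3, VMA11 at 51.5, VMA4 at 43.7 and VMA13 at 25.2 times the median of ORFs of their length. VMA8 at 11.5, VMA10 at 9.53 and VMA5 at 3.69 times the median came last. The 507 nt span of VMA10 includes an intron of 162 nt. Its spliced coding sequence is thus shorter than the span used to choose the ORFs beside it. Those ORFs had a median of 250 molecules, against 10 for ORFs near the 357 nt of VMA7. The ratio and percentile of VMA10 thus rest on counting the intron as length, and matching by spliced length was not done. The ratio of VMA7 rests on a median of only 10 molecules among 222 short ORFs, and it was 258 with ORFs within 5% of its length and 28.1 within 20%. By percentile, VMA13 was at 95.2, VMA4 at 94.6 and VMA11 at 94.1, a group with little between them, followed by VMA8 at 86.0, VMA10 at 85.8 and VMA7 at 84.2. VMA5, the clamp subunit, was lowest at 76.8. VMA3 and VMA2 changed places when ORFs within 5% of the length were used (371 for VMA3 and 379 for VMA2), so their order is not settled by these counts.

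**Figure D1:**
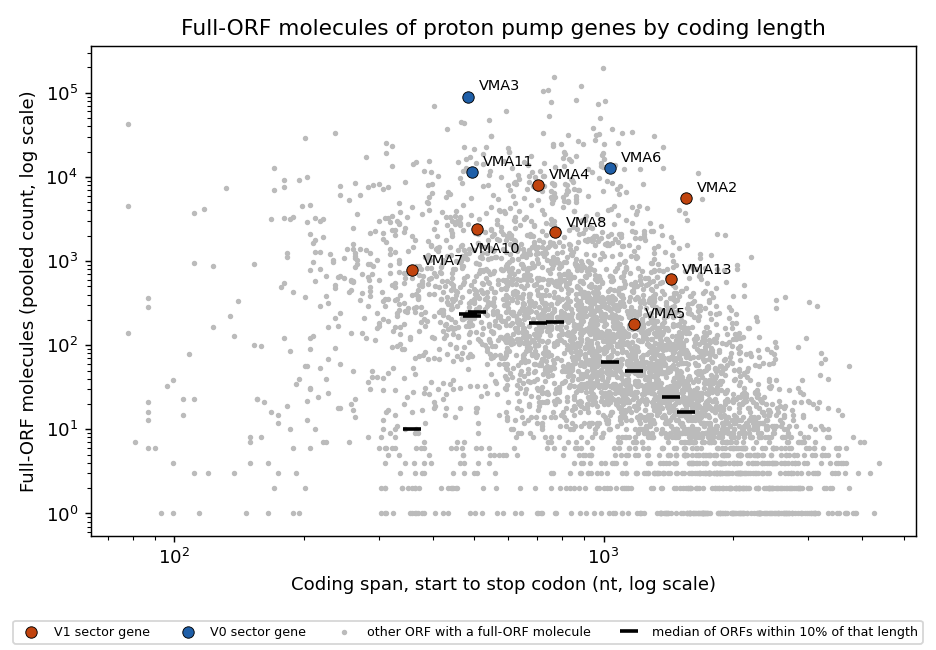
Full-ORF molecules (pooled count, log scale) against coding span (nt, log scale) for the pump genes, coloured by sector, and for other ORFs with at least 1 full-ORF molecule in grey; black dashes give the median of ORFs within 10% of each pump gene's length. Every pump gene lies above its dash, from 3.69 times for VMA5 to 372 times for VMA3.

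**Figure D2:**
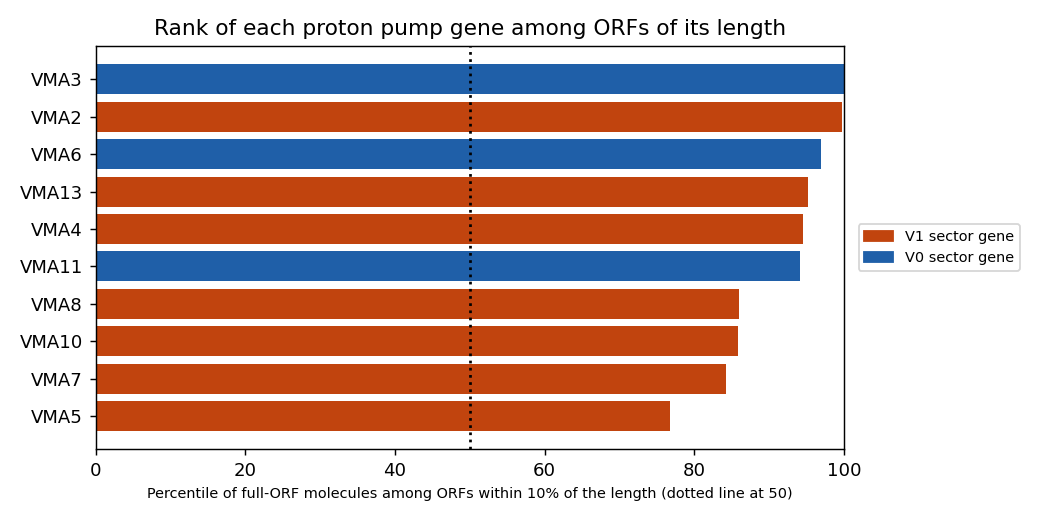
Percentile of each pump gene's full-ORF count among ORFs within 10% of its length, ordered from high to low and coloured by sector. The genes range from 76.8 for VMA5 to 100 for VMA3.

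The subunits of this complex were therefore covered unevenly even for their length. The highest ratio was 101 times the lowest, and the SD of the log2 ratio was 2.27 over the 10 genes and 2.13 without VMA3. Over the 4228 ORFs with a ratio above 0 it was 2.97. In the 3 V0 genes the ratio to the median for the length ran from 51.5 to 372 with a median of 204, and in the 7 V1 genes from 3.69 to 356 with a median of 25.2. The ranges overlap, and with 1 pooled value per gene the difference between sectors was not tested. Counting molecules that reach the stop codon in place of full-ORF molecules lowered VMA6 to 100, VMA2 to 76.4, VMA7 to 14.6, VMA13 to 10.9 and VMA5 to 1.82 times their medians. VMA7 then stood below VMA11 at 38.7 and VMA4 at 30.5, while VMA3 at 306, VMA6 and VMA2 still lay highest. Among only those ORFs of similar length with at least 50 sense molecules, VMA7 was lowest at 2.23, next to VMA5 at 2.38, against 200 for VMA3.

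The mitochondrial ATP synthase, the other rotary ATPase of the cell, was used as a second complex. All 10 pump genes and 13 of 14 nuclear genes of that enzyme were above the median for their length. The percentiles of the pump genes ran from 76.8 to 100 with a median of 94.3, and those of the ATP synthase genes from 33.8 (ATP3) to 94.3 (ATP18) with a median of 80.2. The 10 pump genes are a part of the 15 subunits, and STV1, among the other 5, lay at percentile 0. The SD of the log2 ratio was 2.27 for the pump genes and 3.08 for the ATP synthase genes. Over all 15 pump subunits it was 2.25, from the 13 with a ratio above 0. The ATP synthase value includes ATP18 at 2547 times a median of only 3 molecules among ORFs of its length. On the full-ORF counts themselves, not set against length, the order was reversed. The SD of the log2 count was then 2.59 for the pump genes and 2.22 for the ATP synthase genes. Over all 15 pump subunits, with STV1 and its count of 0 left out, it was 2.90. Which complex was covered more evenly thus depended on the measure.

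The remaining subunits of the pump were described alongside. Of 5, 4 had more full-ORF molecules than the median for their length, against 46.3% of all ORFs. VMA1, the catalytic subunit A with a span of 3216 nt, had 80 full-ORF molecules of 465 sense molecules, where the median for that length was 0, and lay at percentile 98.8. VPH1, the vacuolar form of subunit a, had 94 of 290 over 2523 nt, where the median was 1, and lay at 98.4. STV1, the Golgi and endosome form of subunit a, had 0 of 157 over 2673 nt, where the median was also 1, and a count of 0 allows up to 3 molecules. The 2 forms of subunit a thus differed in whether any complete transcript was recorded, at 290 and 157 sense molecules. The third ring protein VMA16 had 915 full-ORF molecules at percentile 76.2, and VMA9, the small subunit e, had 1018 at 82.2. The 395 nt span by which VMA9 was matched includes introns of 77 and 96 nt.

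Of 5 assembly factors, 2 had more full-ORF molecules than the median for their length, a share near the 46.3% of all ORFs. These were VMA21 with 1018 at percentile 77.8 and PKR1 with 377 at 70.6. VMA12 (VPH2 in the annotation) had 159 at 44.2, VOA1 had 152 at 46.9 and VMA22 had 45 at 26.8. VMA21, VMA22 and VMA12 act in the endoplasmic reticulum, where V0 is put together. VMA22 was unlike the subunit genes in that 108 of its 174 sense molecules started from 1 to 100 nt inside the coding span. Of the RAVE complex, which rejoins V1 to V0, RAV1 had 0 full-ORF molecules of 41, RAV2 had 161 of 202 and SKP1, which also serves ubiquitin ligases, had 3923 of 4242.

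Start sites were examined in the full-ORF molecules. Starts joined across gaps of at most 10 nt formed 1 cluster with at least 5% of the molecules in 9 of the 10 genes. VMA7 was the exception, and 39.3% of the 2399 ORFs with at least 50 full-ORF molecules had more than 1 such cluster. These counts were not set at equal depth, and rare positions can bridge gaps in deeply counted genes. When only positions with at least 1% of the molecules were joined, VMA7 was still the only exception, against 52.9% of ORFs. That setting was chosen after seeing the data. All 10 most used starts had a pyrimidine before a purine, the usual yeast initiator pair, which was so for 96.6% of those ORFs. Median 5′ UTRs ran from 26 nt in VMA10 to 87 nt in VMA5, and 8 of 10 exceeded the ORF median of 39 nt, against 49.2% of ORFs. The leader from the most used start held no ATG in any of the 10 genes, against an ATG in 10.4% of ORFs.

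Within the cluster the genes differed in how sharply they started. VMA4 placed 6869 of 8099 molecules, 84.8% (84.0% to 85.6%), on the base 31 nt before the start codon. VMA3 placed 78.7% (78.4% to 79.0%) on the base 63 nt before it. These shares were at percentiles 98.5 and 97.2 of ORFs with at least 50 full-ORF molecules. VMA2 was the opposite, with 1155 molecules (20.3%) at 64 nt, 1014 (17.8%) at 31 nt and 906 (15.9%) at 49 nt. VMA10 was likewise spread, with 556 molecules at 21 nt, 508 at 27 nt and 488 at 26 nt. An initiator pair lay at the start of 54.5% of its full-ORF molecules, against 71.5% to 97.8% in the other 9 genes. The VMA10 starts lie close to the splice junction after its start codon, and the part of read placement there in this spread was not tested. VMA13 had 25.3% at its most used start, 42 nt before the start codon. The head gene VMA2, the stalk gene VMA10 and VMA13 therefore had molecules at several neighbouring starts, each with at most 25.3% of the molecules.

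The other 5 genes lay between. Their most used start took 34.8% in VMA5, 34.9% in VMA11, 38.6% in VMA6, 38.9% in VMA8 and 40.9% in VMA7. VMA5 had the longest leaders, with 63 molecules at 87 nt, 54 at 83 nt and 27 at 105 nt before the start codon. All of its 181 full-ORF molecules started from 74 to 119 nt upstream. VMA7 had a small separate group of 40 molecules at 19 nt, of which 39 ended in the first of its end groups, in 2 isoforms. With so few isoforms, copies made by PCR cannot be told apart from separate molecules.

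Ends were then located. Median 3′ UTRs ran from 70 nt in VMA4 and 71 nt in VMA5 to 253 nt in VMA3, and 5 of 10 exceeded the ORF median of 115 nt, against 49.9% of ORFs. The 3′ UTR of VMA3 lay at percentile 93.0 of ORFs and those of VMA4 and VMA5 at 12.5 and 13.4. The ring gene with the most molecules thus had the longest 3′ UTR of the set. VMA2 had a median of 166 nt, VMA6 152 nt, VMA11 141 nt, VMA7 139 nt, VMA8 106 nt, VMA10 95 nt and VMA13 90 nt.

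End positions ranged from a single base to several groups. In VMA6, 11958 of 12867 molecules, 92.9% (92.5% to 93.4%), ended 152 nt past the stop codon, a share at percentile 99.7 of ORFs. VMA13 had 79.1% at 90 nt, VMA2 64.3% at 166 nt, VMA4 59.3% at 70 nt and VMA3 56.7% at 253 nt. With gaps of at most 10 nt joined, only VMA5 had more than 1 end cluster with at least 5% of the molecules, against 53.3% of ORFs. VMA5 showed 3, peaking at 51, 71 and 104 nt past the stop codon, with 45.3% (38.2% to 52.6%), 31.5% and 22.7% of its 181 molecules. When only positions with at least 1% of the molecules were joined, a choice made after seeing the data, 5 of 10 genes had more than 1 end cluster, against 64.3% of ORFs. These were VMA2, VMA5, VMA7, VMA8 and VMA10. In VMA10 the 3 groups peaked at 84, 98 and 113 nt with 45.0%, 11.0% and 36.7%, and in VMA8 the 2 groups peaked at 100 and 148 nt with 73.2% and 16.2%.

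**Figure D3:**
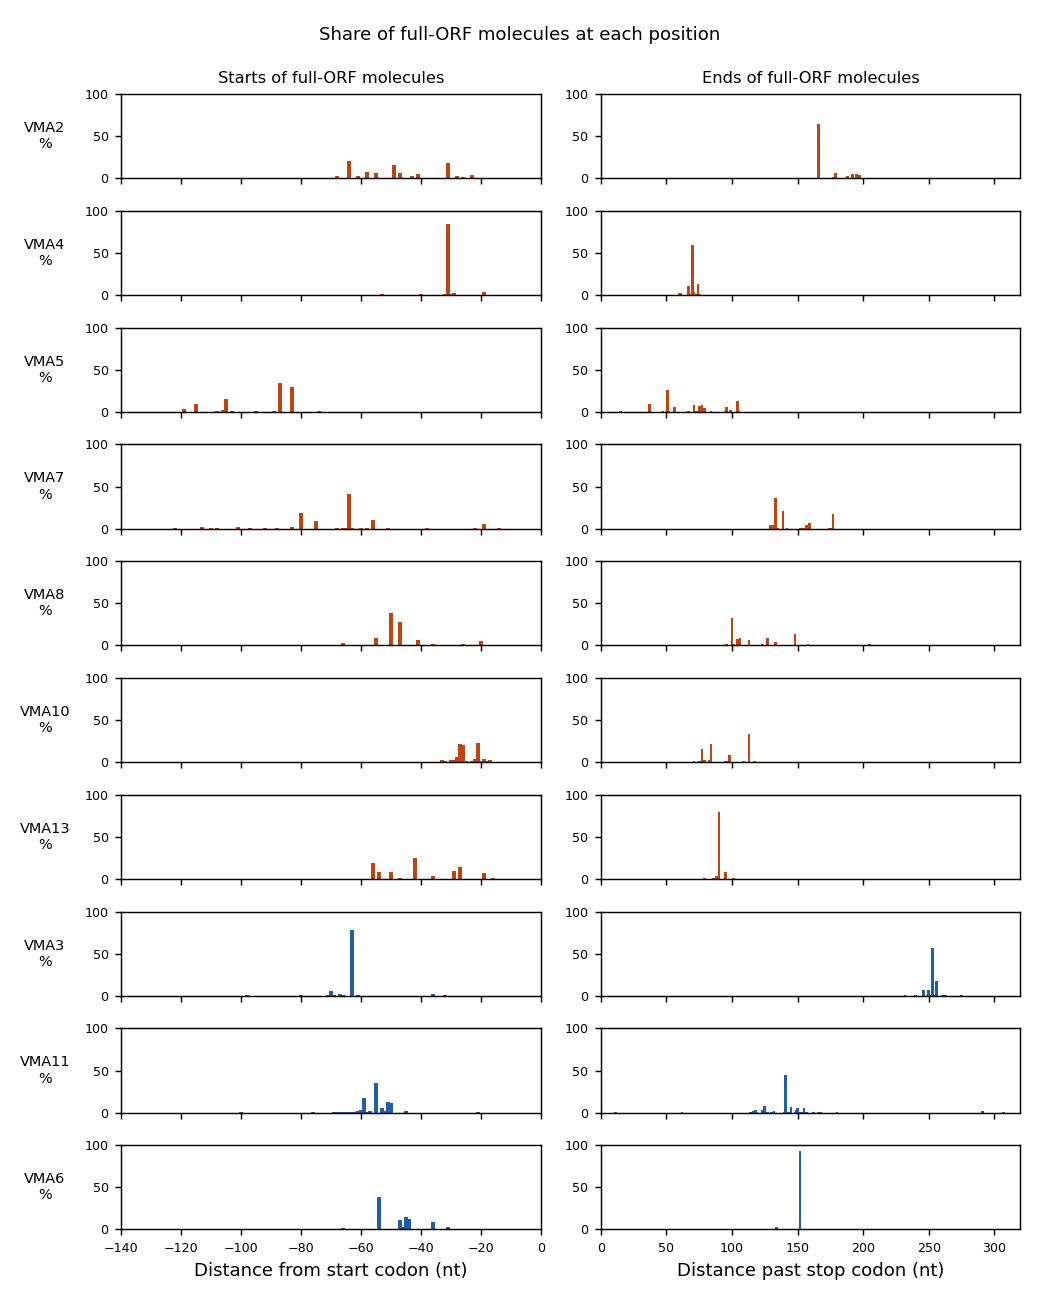
Share of each gene's full-ORF molecules (%) at each start, in nt before the start codon, and at each end, in nt past the stop codon, for the 10 pump genes (V1 genes in red, V0 genes in blue); starts beyond 140 nt and ends beyond 320 nt, at most 0.497% and 0.388% of a gene's molecules, are not drawn. VMA4 and VMA3 have 1 tall start at 31 and 63 nt, VMA6 has 1 tall end at 152 nt, and VMA2, VMA10 and VMA13 spread their starts over several bases.

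The sequence at the ends was compared with that of other ORFs. An end was called A-rich where the next 10 nt of genome held at least 6 A. This was so at the most used end of 7 of 10 pump genes, all but VMA4, VMA5 and VMA10, against 22.6% of the 2399 ORFs. By molecules, 98.9% of VMA6, 96.5% of VMA13 and 78.3% of VMA2 full-ORF molecules had A-rich ends, against 0% for VMA4 and 0.252% for VMA10. The windows printed above show a run of A directly after the end in VMA6, VMA2 and VMA13. An end inside such a run cannot be told apart from the poly(A) tail, so the sharpness of those 3 ends is an upper limit. For the other A-rich ends this holds only as far as A follows the end directly, which the A-rich rule does not require. The 100 nt up to the most used end held TATATA in VMA2, VMA5, VMA7, VMA11 and VMA6, and in 47.6% of ORFs. They held AATAAA in VMA8, VMA10 and VMA13, and in 21.8% of ORFs. Only the strand of the gene was searched, each motif was searched separately, and VMA3 and VMA4 held neither.

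Start and end choice together set how many isoforms a gene had. Among 50 full-ORF molecules, VMA6 would show 13.4 distinct isoforms, VMA4 14.5, VMA3 16.7 and VMA13 17.7, computed exactly from the counts. VMA5 would show 24.1, VMA7 25.3, VMA2 27.5, VMA8 28.9, VMA10 30.7 and VMA11 31.7. The median over ORFs was 23.3, with quartiles of 18.7 and 28.1. The 2 ring genes therefore stood on opposite sides of that median at equal depth, VMA3 at percentile 16.0 and VMA11 at percentile 87.5. The most counted isoform of VMA4, from 31 nt before the start codon to 70 nt past the stop codon, was 803 nt long and had 4078 molecules, or 50.4%. That of VMA3 ran from 63 nt to 253 nt, was 799 nt long and had 39033 molecules, or 44.2%. That of VMA6 ran from 54 nt to 152 nt, was 1244 nt long and had 4598 molecules, or 35.7%. In the other 7 genes the most counted isoform held from 8.98% (VMA10) to 19.5% (VMA13).

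Cells without Set2 are known for cryptic initiation within coding regions, so molecules starting more than 100 nt inside the coding span and ending at or past the stop codon were counted. These internal-start molecules numbered 3822, which was 2.80% of internal-start plus full-ORF molecules (2.72% to 2.89%), and 5.47% (5.26% to 5.68%) without VMA3. In 8 of 10 genes the share was below the median of ORFs within 10% of the length that had at least 50 sense molecules, against 47.4% of ORFs. The exceptions were VMA7 and VMA10. Full-ORF molecules are part of the denominator, and all 10 genes had more of them than the median for their length. A low share therefore does not mean that few internal-start molecules were counted. With no wild type, none of these shares can be set against a strain that has Set2.

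VMA13 had the highest share, 43.3% (40.4% to 46.3%), where ORFs of its length had a median of 63.1%. Its 462 internal-start molecules began at 135 different sites, and the most used, 1091 nt inside, had only 18 of them. VMA2 had 11.2% (10.5% to 12.0%), against a median of 71.9% for its length, which put it at percentile 1.33. Its full-ORF count was 356 times the median of all ORFs within 10% of its length. Its 720 internal-start molecules began at 177 sites, with at most 27 at a site. In both long V1 genes the internal starts were scattered rather than gathered on a site. The same was seen in the V0 gene VMA6, whose 581 internal-start molecules began at 159 sites, with at most 27 at a site. The scatter was not compared with that of other ORFs. VMA6 had 4.32% against a median of 33.2%, VMA5 5.73% (3.23% to 9.97%) against 45.0%, and VMA8 8.68% against 13.8%. VMA4 had 1.45% against 11.5%, VMA3 1.41% against 4.50% and VMA11 1.04% against 5.40%. Across the 10 genes, which share the same libraries, the share and the span had a Spearman rho of 0.58, given as a description.

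VMA10 had 10.6% (9.53% to 11.9%) against a median of 5.25% for its span, intron included, and VMA7 had 6.42% (4.94% to 8.30%) against 2.55%. In VMA10, 206 of the 284 internal-start molecules began in the last 20 nt of its intron (chromosome VIII, 187515 to 187676, 162 nt), and the most used site, 10 nt before the last base of the intron, had 100 of them. Altogether 217 began within the intron, and without them the share was 2.73% (2.16% to 3.46%). The start codon itself lies just before this intron, so the start read of a spliced molecule crosses the splice junction within a short distance. How such reads were placed is not given in the sources used here, and its part in these counts was not tested. In VMA7, 16 of the 53 internal-start molecules began 228 nt inside, at an initiator pair.

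**Figure D4:**
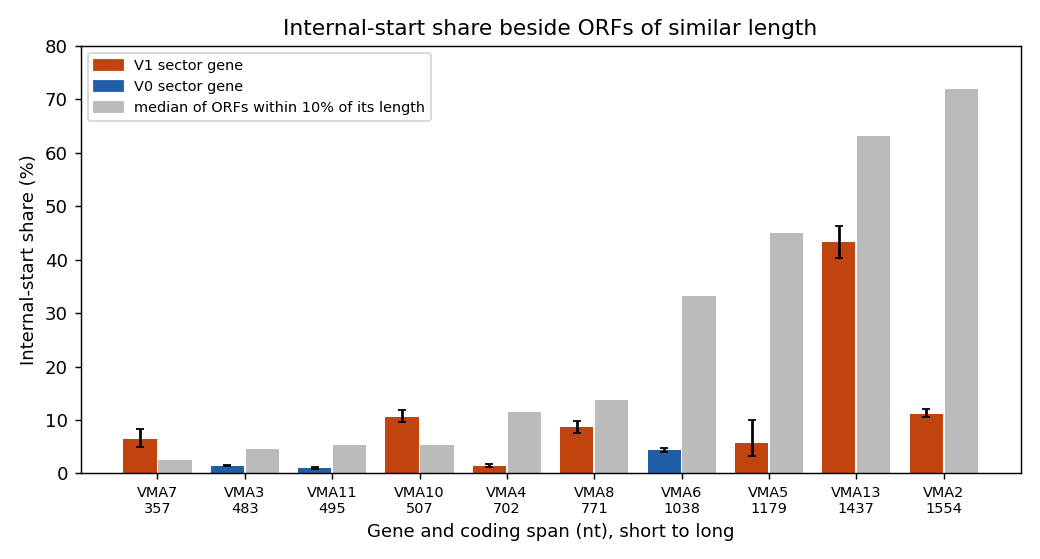
Internal-start share (%) of each pump gene with its 95% Wilson interval, red for V1 and blue for V0, beside the median of ORFs within 10% of its length with at least 50 sense molecules (grey), ordered from short to long. VMA2 is at 11.2% beside 71.9%, VMA13 at 43.3% beside 63.1%, and VMA7 and VMA10 are above their grey bars.

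Molecules that ended early were rare. In all 10 genes together, 29 of 136678 sense molecules ended before the stop codon. VMA2 had 14 of them and VMA6 had 12. Of the full-ORF molecules, 6 from VMA3 covered another ORF as well, the downstream gene SNU13. No neighbouring ORF was overlapped by 5% or more of the sense molecules of a pump gene.

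Antisense molecules over the 10 spans numbered 145, which was 0.106% of sense plus antisense molecules (0.0901% to 0.125%), and 0.293% (0.248% to 0.346%) without VMA3. Over all ORFs the share by the same overlap rule was 7.28%. At least 1 antisense molecule was found in 9 of 10 genes, against 75.0% of ORFs, and the median was 8 for the pump genes and 7 for all ORFs. The low share thus went with high sense counts, while the median number of antisense molecules was near that of all ORFs. The 7.28% comes from sums, in which ORFs with many antisense molecules weigh most, so the medians do not account for the whole difference. VMA7 had 0, which allows up to 3 molecules.

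VMA11 had the most antisense molecules, 63 in 22 isoforms. Of these, 59 started at 7 sites in the last 100 nt of the span before the stop codon, and 60 started inside the span and ended from 103 to 563 nt upstream of the VMA11 start codon. None reached NSL1, the next gene in that direction, whose start is 731 nt away. VMA4 had 17, VMA6 16, VMA5 16 and VMA8 4, and every one of these started past the stop codon and ended inside the coding span. The 6 antisense molecules of VMA2 overlapped MEO1, and the 7 of VMA10 were 1 isoform that ran across BCD1 in the direction of that gene. VMA3 had 7 in 1 isoform that covered the whole span, and VMA13 had 9 in 5 isoforms. VMA5 had the largest antisense share, 7.51%, from 16 antisense and 197 sense molecules.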

How the data were processed

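TIF-Seq was applied to total RNA of 2 biological replicate cultures of 1 group. The authors deposited 1 whole-number count per pair of start and end positions and strand. The column header names neither library, and the counts are taken as pooled over both. Total depth was 6074514 molecules, and the depth of each library is unknown. CASAVA, Novoalign 2.07.10 and the R64 build are named in the submitters' processing notes, with no role stated. Filters, duplicate removal and the way libraries were combined are not given in the sources used here, and no molecular identifier is mentioned, so intervals cover counting error only. Unused columns of other samples numbered 0.

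Positions were checked against R64: at 11494 start sites with at least 30 molecules, 75.5% had the initiator pair, against at most 25.6% at any other shift up to 20 nt, and no position lay past a chromosome end. ORFs were RefSeq coding spans, introns included. Isoforms were assigned by an overlap of at least 1 nt. Shares have 95% Wilson intervals. No hypothesis test was possible with 1 pooled column. Named genes were the 10 subunits and lists of other pump, assembly, RAVE and ATP synthase genes; the genes and lists were chosen with earlier results of these data known. The classing was tested on simulated isoforms. Python 3.11.15, pandas 2.3.3, SciPy 1.17.1 and Biopython 1.88 were used. The start window of VMA10 is not reported here.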

Additional observations from a re-analysis of the deposited data

How the results depend on the processing

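No paired analysis was possible because there is 1 column for 1 group, taken as the pool of both replicates. For the same reason no replicate could be left out. Of 34 alternatives for values over all 10 genes, 22 kept it, and of 329 for single genes, 235 did. Kept means within the 95% counting interval for counts, shares and the UTR lengths of a gene, within 1.5 times for clusters and for the coverage relative to length, and equal for a UTR median over the 10 genes. Several of the others thus moved only a little. Their cause was not tested, except that counting each isoform once gives rare isoforms equal weight by construction. Keeping isoforms with at least 2 molecules gave 135426 sense, 131740 full-ORF and 121 antisense molecules and an internal-start share of 2.51%. Counting each isoform once gave 3757 sense and 2565 full-ORF isoforms, an internal-start share of 29.7%, and medians over the 10 genes of 47 nt for the 5′ UTR (49.5 nt by molecules) and 130.5 nt for the 3′ UTR (122.5 nt). Internal starts counted from more than 0 nt inside gave 3.03%, from more than 200 nt 2.15%, and without VMA3 5.47%. End clusters numbered 12, and from 10 to 18 under other settings; start clusters numbered 11, and from 10 to 15. The SD of the log2 ratio for the length stayed between 2.13 and 2.41. Alternatives without VMA3, with positions of at least 1%, or with ORFs of at least 50 sense molecules were chosen after seeing the data. Depth limits VMA5 most, with 181 full-ORF molecules.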

Other observations

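The assembly genes VMA21 and VOA1 face each other on chromosome VII, with 156 nt between their stop codons. VMA21 encodes a membrane protein of the endoplasmic reticulum needed to put V0 together, and VOA1 encodes a partner in the same step. Of 1018 full-ORF molecules of VMA21, 869 ended inside the VOA1 coding span, 85.4% (83.1% to 87.4%). The most used end, with 443 molecules, was 178 nt past the VMA21 stop codon. VOA1 had 905 antisense and 164 sense molecules, and 896 of the antisense molecules also overlapped VMA21. In the other direction, 0 of 152 full-ORF molecules of VOA1 reached VMA21, and their median 3′ UTR was 99 nt. None of the VMA21 molecules covered the whole of VOA1. The pair was singled out after its values had been seen.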
